A study of Mus musculus with 2 samples.

Results

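The genes described here are 7 enzymes that lengthen or desaturate long-chain fatty acids in the mouse, namely Fads1, Fads2, Elovl1, Elovl2, Elovl3, Elovl5 and Scd2. They were picked by name from the 27962 gene names on the array, with earlier results of these data known. All 7 were measured, by 8 of the 41174 probes, each well above background on all 6 arrays, so that no member was lost to the filter that left 16730 genes for testing. The samples were livers of male apoE-KO mice of the C57BL/6 strain, which lack apolipoprotein E in every group compared here. From an age of 10 weeks they received either normal chow or the high-Chol diet, the same chow with 1.25% Chol added, for 1 week. Each diet was represented by 3 arrays from independent experiments. No wild-type liver was in the series, the number of mice behind each array was not given in the sources used here, and neither was the time of day at which livers were taken.

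Mammals cannot make linoleic and alpha-linolenic acid and must eat them, and the liver converts them to longer and more unsaturated products such as arachidonic and docosahexaenoic acid. In this route Fads2 introduces the first new double bond, Elovl5 lengthens the chain, Fads1 introduces the next double bond, and Elovl2 carries out the later elongations toward docosahexaenoic acid. Fads1, Fads2 and several elongases are known targets of SREBP-1, LXR and PPAR alpha in liver, and their products in turn restrain SREBP-1. The remaining members work mostly on other fatty acids. Elovl1 and Elovl3 lengthen saturated and monounsaturated chains, and Scd2 is a stearoyl-CoA desaturase that makes monounsaturated fatty acids, so that the name polyunsaturated pathway covers Fads1, Fads2, Elovl2 and Elovl5 only.

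The data were spot brightness values from one-colour arrays with 60-base probes. Each value below is a level, the log2 of the spot's signal relative to the 75th percentile of its array, so that 0 is the brightness of that percentile and 1 unit is a 2-fold change. Levels are compared only within a probe. The normal chow arrays occupied positions 1, 2 and 3 of slide 1, with a high-Chol array at position 4, while the remaining high-Chol arrays came from positions 2 and 3 of slide 2. The 75th percentile itself was between 271 and 373 on slide 1 and between 762 and 799 on slide 2, and between 50.5% and 67.2% of the spots of an array were well above background. The defining markers of hepatocytes were present, with 9 of 9 measured well above background on all 6 arrays. The Apoe probe gave levels of 3.31, 1.66 and 3.81 on normal chow, and 3.20, 3.18 and 3.56 under the high-Chol diet. Whether that probe lies in the part of the gene that was disrupted is not given, and since all mice carried the deletion it checks no label here.

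The genome positions of the probes, as the array annotation gives them for build mm7, are set out for all 8, and the first 30 of the 60 bases for the probes of Fads1, Fads2, Elovl2, Scd2 and Elovl5, from which the main comparisons below were read. Of the 7 genes, 4 lie on chromosome 19. The Fads1 probe lies at chr19:9876165-9876224 on the plus strand and the Fads2 probe at chr19:9744385-9744815 on the minus strand, a span of 431 bases for 60 bases of probe. The Elovl2 probe lies at chr13:40622319-40622378 on the minus strand. The plus strand holds the Scd2 probe at chr19:44200407-44200466, the Elovl5 probes at chr9:78025742-78025801 and chr9:78025137-78025196, the Elovl1 probe at chr4:117808859-117808918 and the Elovl3 probe at chr19:46031906-46031965. The exon or UTR in which a probe falls is not given in the annotation used here.
Fads1 probe: gagaatataggaacatgcccggagagacct
Fads2 probe: gtgagttcactgaagaagtctggggagctg
Elovl2 probe: tttaagtcgcgctgtgcatcgtaccttcag
Scd2 probe: acatttggggatcctctgcagaggagtatt
Elovl5 probe used for the gene: ctcaatacaaaaattataacatttgatagt
Elovl5 second probe: ctgtagtgctactttgacatacacttcctt

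The question behind the comparison was what dietary Chol does to gene expression in the liver. Of these enzymes, Scd2 alone rose by the test, 3.29-fold, a call that was lost with slide as a block (difference 1.21 on the log2 scale). Slide 2 held no chow array, so the block compares the high-Chol array of slide 1 with the chow arrays beside it. The difference then rests on that array alone, so slide and the loss of arrays cannot be told apart in a lost call. Fads1, Fads2 and Elovl2 had lower levels on every high-Chol array than on any normal chow array, by 1.59-fold to 1.94-fold in the mean, and none of the 3 passed the test. Elovl1 and Elovl5 had mean differences of 0.12 and -0.09. Elovl3 had a mean difference of 1.66 and a spread within each diet of more than 2 log2 units.

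Over all 16730 genes, limma called 450 higher and 38 lower on the high-Chol diet at an adjusted p under 0.05, which is 2.69% and 0.227%. Among the 7 enzymes 1 was called higher and 0 lower. Without adjustment, at p under 0.05, these counts were 1 and 3, where 12.3% of all genes were higher and 8.83% lower. With the methods' t-test they were also 1 and 3, where 8.38% and 8.3% of all genes were, with 0 left in either direction after Benjamini-Hochberg adjustment. More than 1.5-fold lower were 3 of the 7, where 5.84% of all genes were, and more than 1.5-fold higher were 2 of the 7, where 15.4% were. The split of these 1.5-fold changes over all genes depended on the scaling, with 27.5% of them lower on the 75th percentile scale, 61.2% after median scaling, 38.3% after quantile normalization and 74.6% with a normexp background. Of the 6 enzymes with a value on every array, 3 were lower without overlap between the diets and 1 was higher without overlap, against 14% and 11.9% of the 16438 such genes. With 3 arrays against 3, the exact two-sided permutation test over the arrays cannot give a p below 0.1, which is the value of each of these 4 enzymes.

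**Figure D1:**
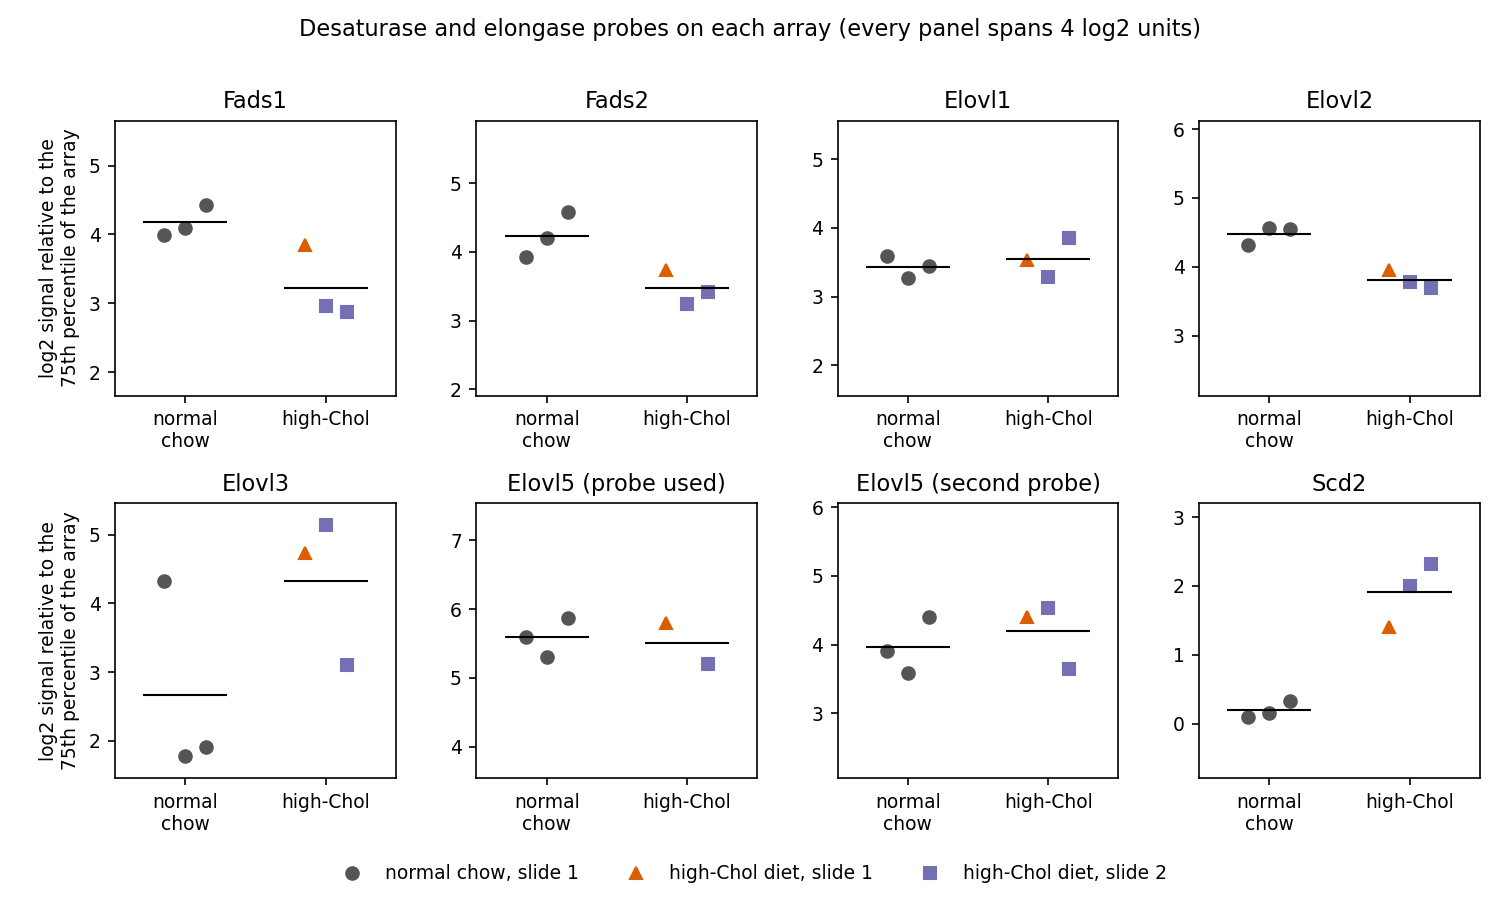
Level of each probe (log2 signal relative to the array's 75th percentile, vertical axis) on the 6 arrays, by diet and slide, with horizontal lines at the diet means. The high-Chol points of Fads1, Fads2 and Elovl2 lie below all normal chow points and those of Scd2 above them, while the diets overlap for Elovl1, Elovl3 and both Elovl5 probes.

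Fads2 encodes the desaturase that opens the route and is usually taken as its slow step. Its levels on normal chow were 3.92, 4.20 and 4.58 at positions 1, 2 and 3. On the high-Chol diet they were 3.74 on slide 1 and 3.24 and 3.42 on slide 2. Every high-Chol array was thus lower than every normal chow array, with a gap of 0.18 between the nearest of them, which is smaller than the range of 0.66 among the chow arrays. The means were 4.23 ± 0.33 (SD, n = 3) and 3.47 ± 0.26 (SD, n = 3). Their difference was -0.77 (SE, the standard error, 0.22, 95% interval -1.30 to -0.24, not adjusted for the number of genes), 1.70-fold lower, with an adjusted p of 0.137 from limma. It was -0.49 with slide as a block (adjusted p = 0.683). Omission of the high-Chol array of slide 1, after which diet and slide cannot be told apart, gave -0.90 with an adjusted p of 0.0413, and omission of any other array gave adjusted p-values between 0.129 and 0.416.

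Fads1 encodes the desaturase that forms arachidonic and eicosapentaenoic acid. On normal chow its levels were 4.0, 4.10 and 4.43, and on the high-Chol diet 3.84 on slide 1 and 2.96 and 2.88 on slide 2. The diets did not overlap, but the high-Chol array of slide 1 stood 0.16 below the lowest chow array and nearer to it than to the other high-Chol arrays. The mean went from 4.18 ± 0.23 (SD, n = 3) to 3.23 ± 0.53 (SD, n = 3). The difference of -0.95 (SE 0.28, 95% interval -1.62 to -0.28) corresponds to 1.94-fold and had an adjusted p of 0.143 from limma. With slide as a block it was -0.34 (adjusted p = 0.736). Leaving out the high-Chol array of slide 1 gave -1.26 with an adjusted p of 0.00807 from limma, a comparison in which diet and slide cannot be told apart, and leaving out any other array gave adjusted p-values between 0.205 and 0.425.

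Elovl2 encodes the elongase that acts on chains already long and unsaturated. Its levels were 4.31, 4.56 and 4.54 on normal chow, and 3.95 (slide 1), 3.77 and 3.69 (slide 2) under the high-Chol diet. Both diets were tight, with ranges of 0.25 and 0.26 among their arrays, and the gap between them was 0.36. The mean went from 4.47 ± 0.14 (SD, n = 3) to 3.80 ± 0.13 (SD, n = 3), which gave a difference of -0.67 (SE 0.16, 95% interval -1.04 to -0.30), with an adjusted p of 0.0808 from limma. It was -0.52 once slide was a block (adjusted p = 0.505). It was -0.74 with an adjusted p of 0.0250 when the high-Chol array of slide 1 was left out, where again diet and slide cannot be told apart, and the adjusted p was between 0.109 and 0.284 when any other array was. The study had listed Fads1 and Elovl2 under fatty acid biosynthesis on the strength of these same arrays, so their direction here is not independent evidence.

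The lower levels of these enzymes are relative to the array. In raw signal, Fads1 read 4329, 4758 and 7038 on normal chow and 5349, 6203 and 5605 under the high-Chol diet, and the slide 2 arrays, whose 75th percentile was 2.04-fold to 2.95-fold that of slide 1 arrays, carried the higher high-Chol readings. On the high-Chol array of slide 1, read beside the chow arrays on the same slide, Fads1, Fads2 and Elovl2 were each below all 3 chow arrays, by 0.34, 0.49 and 0.52 relative to the chow mean. For the arrays of slide 2, slide and diet cannot be told apart, since that slide holds no chow array.

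**Figure D2:**
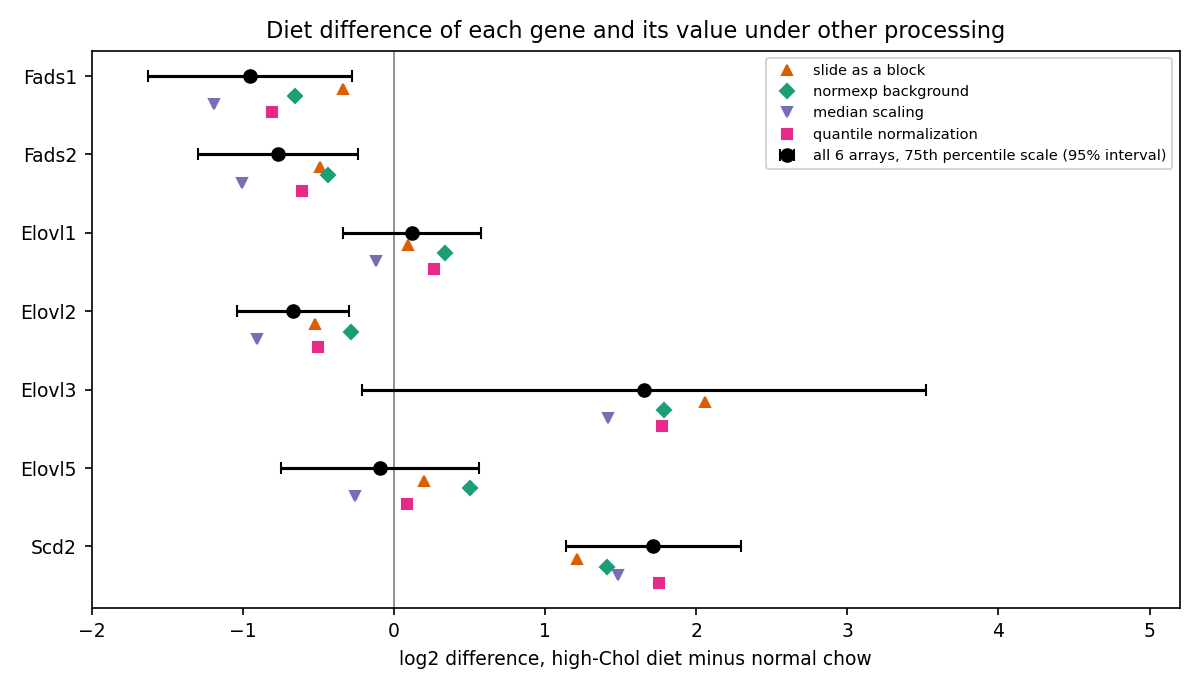
Difference between the diets for each gene (log2, high-Chol minus normal chow, horizontal axis) with its 95% interval from limma, and the same difference with slide as a block and under other scalings. Fads1, Fads2 and Elovl2 stay below 0 and Elovl3 and Scd2 above it, whereas Elovl1 and Elovl5 change sign with the scaling.

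The Fads genes are neighbours. In the RefSeq gene order of GRCm38.p6 the protein-coding genes run Fads3, Fads2, Fads1, Fen1, Tmem258 and Myrf on chromosome 19. Fads3, a relative known for acting on sphingolipid bases, had a difference of 0.06 (SE 0.18, adjusted p = 0.851), with a sign that changed under other scalings. Fen1, a DNA repair nuclease, differed by 0.19 (adjusted p = 0.651), Tmem258 by -0.40 (adjusted p = 0.250) and Myrf by -0.12 (adjusted p = 0.785). No gene of this run passed the test in limma, and Fads2 and Fads1 were the ones without overlap between the diets.

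Because Fads2 and Elovl2 had similar profiles, the 250 bases before their annotated starts are printed with those of Elovl5, whose level differed little, in lower case with matches to short motifs in capitals. RefSeq windows were at hand for 4 of the 7 genes (Fads2, Elovl1, Elovl2 and Elovl5), on build GRCm38.p6. Short motifs were searched on both strands. The E-box was taken as CACGTG and the box bound by NF-Y as CCAAT. The letters of the GC box, which Sp1 binds, were GGGCGG. For the core of a sterol response element they were CACCCCAC, and the TATA box was read as TATAAA. No match overlapped another in the printed windows. Fads2 is at chr19:10101504-10101753 on the minus strand, Elovl2 at chr13:41220404-41220653 on the minus strand and Elovl5 at chr9:77917115-77917364 on the plus strand.
Fads2 promoter: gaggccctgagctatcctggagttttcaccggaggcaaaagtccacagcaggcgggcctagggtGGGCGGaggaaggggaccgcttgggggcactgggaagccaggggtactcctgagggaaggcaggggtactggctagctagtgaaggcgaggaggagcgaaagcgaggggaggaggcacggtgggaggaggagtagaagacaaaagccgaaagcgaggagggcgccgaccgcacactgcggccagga
Elovl2 promoter: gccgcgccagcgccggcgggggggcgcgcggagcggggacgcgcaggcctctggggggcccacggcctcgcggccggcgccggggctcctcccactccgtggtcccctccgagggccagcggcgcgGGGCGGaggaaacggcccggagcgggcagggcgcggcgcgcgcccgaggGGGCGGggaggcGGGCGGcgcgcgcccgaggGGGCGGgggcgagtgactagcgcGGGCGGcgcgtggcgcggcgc
Elovl5 promoter: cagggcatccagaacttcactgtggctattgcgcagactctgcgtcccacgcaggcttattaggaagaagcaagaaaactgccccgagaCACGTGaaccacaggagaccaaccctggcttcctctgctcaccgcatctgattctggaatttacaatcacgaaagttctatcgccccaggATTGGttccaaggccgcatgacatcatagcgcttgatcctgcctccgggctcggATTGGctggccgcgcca

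The windows differed in composition and in motif letters. G and C made up 64.8% of the Fads2 window, 87.2% of the Elovl2 window and 55.6% of the Elovl5 window, with a median of 52.4% over all 32851 windows. The Fads2 window held 1 GC box, beginning 186 bases before the start, and the Elovl2 window held 5. A second RefSeq start of Elovl2, with its window at chr13:41220163-41220412, had 79.6% G and C and held 0 matches to any of the motifs. Elovl5 had none, but had 1 E-box and 2 NF-Y boxes, read on the opposite strand as ATTGG. Of all windows of this length, 32.7% held a GC box, 33.8% an NF-Y box, 6.02% an E-box, 12.4% a TATA box and 2.58% the sterol response core, and neither of the last pair of motifs was among the letters of the 3 printed windows. These matches describe the sequence and are not sites shown to be used.

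Elovl5 encodes the elongase between the desaturases, and it also lengthens monounsaturated chains. The probe used for the gene read 5.60, 5.30 and 5.88 on normal chow, and under the high-Chol diet 5.79 on slide 1 and 5.21 at position 3 of slide 2. Its spot at position 2 of slide 2 was marked as an outlier by the scanner software and was left out of the fit. The mean was 5.59 ± 0.29 (SD, n = 3) in chow-fed and 5.50 ± 0.41 (SD, n = 2) in Chol-fed mice, and the difference of -0.09 (SE 0.27, adjusted p = 0.859 from limma) had a 95% interval of -0.75 to 0.56. The second probe had all its values, at 3.90, 3.59 and 4.41 on normal chow and 4.41, 4.53 and 3.64 under the high-Chol diet, and gave 0.23 (SE 0.31). The probes thus differed in sign, both with overlapping diets, and the interval leaves room for a change of up to 1.68-fold down or 1.48-fold up.

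Elovl1, which makes saturated and monounsaturated chains of very great length, read 3.59, 3.27 and 3.45 on normal chow and 3.53, 3.28 and 3.85 under the high-Chol diet. The groups overlapped. The mean difference was 0.12 (SE 0.19, 95% interval -0.34 to 0.58, adjusted p = 0.736 from limma), and it was -0.12 after median scaling, which shifted the median of all genes from -0.02 to -0.26.

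Scd2 was the member that changed by the test. Its levels were 0.09, 0.15 and 0.32 on normal chow, and 1.40 (slide 1), 2.00 and 2.32 (slide 2) under the high-Chol diet. The lowest high-Chol array stood 1.08 above the highest chow array, a gap larger than the range of either diet, 0.23 and 0.91. The mean rose from 0.19 ± 0.12 (SD, n = 3) to 1.91 ± 0.46 (SD, n = 3), which gave a difference of 1.72 (SE 0.25, 95% interval 1.14 to 2.30, adjusted p = 0.0178 from limma). This is 3.29-fold, and Scd2 ranked 272 of 16730 by the size of the rise. Within slide 1 the difference was 1.21. With slide as a block the adjusted p was 0.129, and with a normexp background, where 0 genes were called, it was 1.00 for a difference of 1.41. The call was also lost without the filter on dim probes, with the methods' t-test, and when any array other than the high-Chol array of slide 1 was left out, with adjusted p-values between 0.0533 and 0.0971 in those leave-one-out fits.

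The other stearoyl-CoA desaturases next to Scd2 did not pass the test. The RefSeq order on chromosome 19 is Scd3, Scd2, Scd4 and Scd1. Scd1, the main desaturase of adult liver, read 6.90, 7.24 and 7.82 on normal chow and 7.79, 7.84 and 7.62 under the high-Chol diet, a difference of 0.43 (SE 0.25, adjusted p = 0.343). Scd3 differed by -0.49 (SE 0.25, adjusted p = 0.299), and Scd4 was not well above background on all arrays of either diet. These genes are close in sequence, and cross-hybridization between them was not tested.

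Scd2 is known from many tissues and cell types besides hepatocytes, and the liver samples held RNA of all their cells. In such bulk RNA, a difference in the number of cells of a type and a difference in RNA per cell cannot be told apart. Of 12 macrophage markers, 11 were well above background on all arrays, all 11 were higher on the high-Chol diet, and 6 were called. Their median difference was 1.01, beside -0.02 over all genes, with all 11 higher also after median scaling, quantile normalization and normexp and with slide as a block, the last pair of which left 0 of them called. The signal summed over the 12 markers was between 181 and 214 times the 75th percentile on normal chow and 437 to 578 times with Chol added. Most of this sum came from Lyz2 and Cd5l, and Adgre1 had no value on 1 slide 2 array. Cd68, a lysosomal glycoprotein of macrophages, rose by 1.74 (SE 0.15, adjusted p = 0.00601), and Lyz2, lysozyme, by 1.78 (SE 0.23, adjusted p = 0.0133). Csf1r, the receptor that macrophages need to survive, differed by 0.28 (adjusted p = 0.378), and Itgam was at background on every array.

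**Figure D3:**
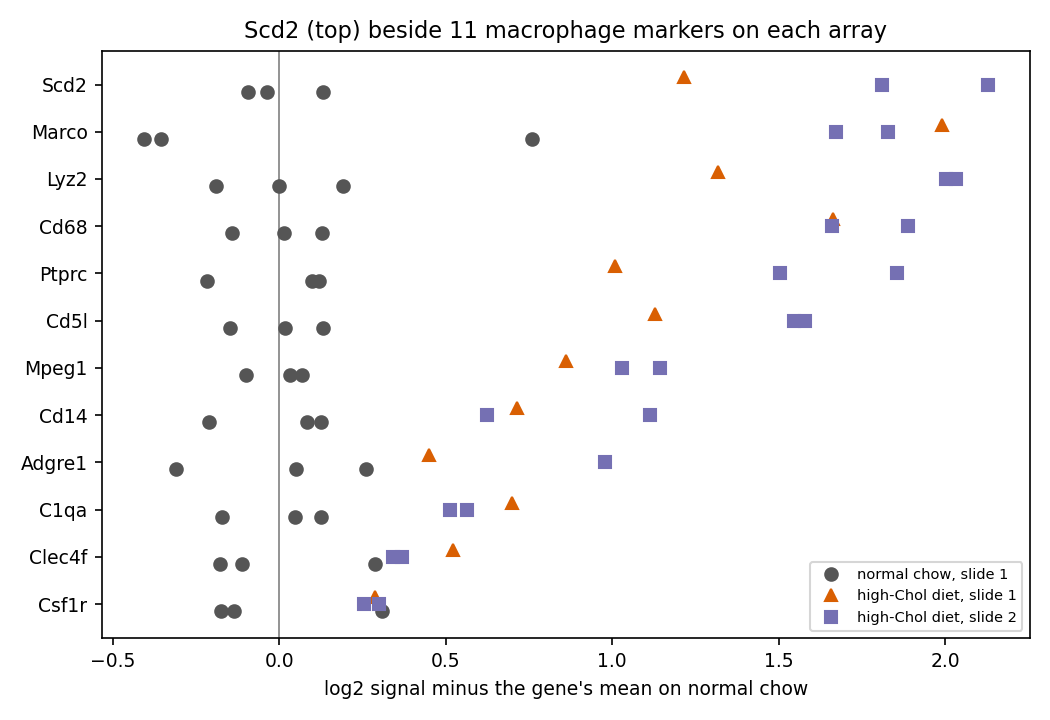
Level of Scd2 and of 11 macrophage markers on each array, as the difference from the gene's own mean on normal chow (log2, horizontal axis), by diet and slide, with the Adgre1 spot marked as an outlier on a slide 2 array left out. For Scd2 the high-Chol array of slide 1 lies lowest of the high-Chol arrays and the slide 2 arrays highest, whereas among the 10 markers with all 3 high-Chol values that array lies lowest for 4 (Lyz2, Ptprc, Cd5l and Mpeg1), highest for 3 (Marco, C1qa and Clec4f) and between the others for 3, and the diets overlap for Csf1r.

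Among markers of other cells, 2 of the 3 tested neutrophil markers were called higher, S100a8 by 3.21 and S100a9 by 2.90, and 0 with slide as a block or with a normexp background, where 1 of the 3 was lower with the latter, whereas the granule gene Mpo differed by 0.48 (adjusted p = 0.256), and Elane, Ngp and Camp were at background on all arrays. The sum of the 6 neutrophil markers, most of it S100a9, was between 1.60 and 1.77 times the 75th percentile on normal chow and between 9.24 and 15.4 on the high-Chol diet. For the 5 measured endothelial markers the sums were between 7.90 and 9.86 and between 10.1 and 10.8, with 0 called by limma (1 at an unadjusted p under 0.05), and for the 8 stellate and bile duct markers between 3.63 and 4.73 and between 4.13 and 4.76, with 0 called (1 unadjusted). Hepatocyte sums were 2164 to 2441 in chow-fed mice and 1640 to 1867 in Chol-fed mice, with 8 of 9 lower (6 of 9 with a normexp background) and 0 called by limma (without adjustment 2 lower, and 1 higher, Ttr, by 0.48). Of the 6 adipocyte markers 1 was well above background on all arrays, and Adipoq and Lep were at background throughout. The 2 tested, Plin1 and Cfd, were higher by 0.89 and 1.15, with 0 called, and Plin1 passed the filter only through the high-Chol group. With slide as a block or a normexp background, 1 of the 2 was lower. The adipocyte sums were 0.33, 0.24 and 0.18 on normal chow, and 0.14 (slide 1), 0.49 and 0.85 (slide 2) under the high-Chol diet. Of 4 brain and nerve markers limma called 1 higher and 0 lower (1 in each direction without adjustment), and the called gene was Mbp, a myelin protein, with a difference of 1.21 (adjusted p = 0.0294) that was 0.25 with a normexp background. The part of these cell types in the difference of Scd2 was not tested.

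Elovl3 varied most among arrays of 1 diet. In mouse liver this elongase is known for levels that swing over the day and differ between the sexes. It read 4.32 at position 1 but 1.77 and 1.91 at positions 2 and 3 on normal chow, and 4.73 on slide 1 with 5.14 and 3.10 on slide 2 on the high-Chol diet. One chow array therefore lay above one high-Chol array, and the range among the chow arrays, 2.54, was larger than that of 99.5% of genes. The means were 2.67 ± 1.43 (SD, n = 3) and 4.32 ± 1.08 (SD, n = 3), and their difference of 1.66 (SE 0.79, 95% interval -0.21 to 3.52) had an adjusted p of 0.272 from limma. Leaving out the chow array at position 1 gave 2.48 with an adjusted p of 0.120, and leaving out other arrays gave values down to 1.21.

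Several genes of the daily rhythm varied between arrays of the same diet as well. Insig2, which holds SREBP in the endoplasmic reticulum, read 4.76, 3.37 and 3.23 on normal chow and 5.28, 5.31 and 4.18 under the high-Chol diet, with the same chow array highest and the same high-Chol array lowest as for Elovl3. Arntl, the core activator of the clock, read -1.12, -1.71 and -3.67 and then 1.19, 1.17 and -1.51. Dbp, an output factor of the clock, read 6.57, 6.49 and 6.80 on normal chow but 0.86, 0.86 and 5.64 on the high-Chol diet, so that the array at position 3 of slide 2 stood apart from the other high-Chol arrays. Of 17 clock genes 15 were tested, 12 were lower and 3 higher, and limma called 0 (7 lower and 3 higher without adjustment, beside 8.83% and 12.3% of all genes, and with the methods' t-test 2 lower and 0 higher, of which 0 passed after adjustment). After median scaling limma called 2 clock genes lower. Whether the hour of collection differed between arrays is not given, and its part in the Elovl3 values was not tested.

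**Figure D4:**
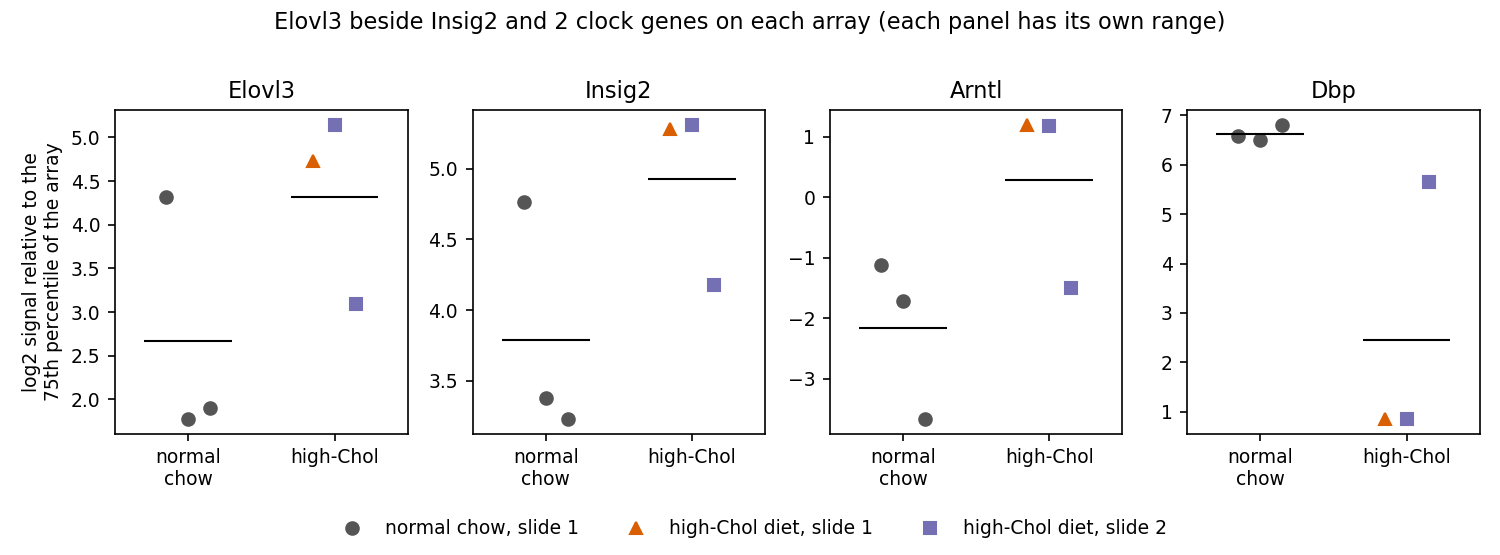
Level of Elovl3, Insig2, Arntl and Dbp (log2 signal relative to the array's 75th percentile, vertical axis, a range of its own in each panel) on each array, with lines at the diet means. The chow array at position 1 is the highest chow array for Elovl3, Insig2 and Arntl, and at position 3 of slide 2 the high-Chol array is the lowest of its diet for these genes and the highest for Dbp.

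The rest of the pathway was described by a list of 31 genes for desaturation, elongation, activation and transport of the chain, its placement in phospholipid and the peroxisomal step that ends docosahexaenoic acid synthesis. Of these, 27 were tested, and limma called 2 higher and 0 lower. Lpcat1, among the 2 and among those higher without adjustment, passed the filter only through the high-Chol group. With only probes well above background on all 6 arrays, 1 gene of the list was called. Without adjustment, at p under 0.05, 6 were lower and 2 higher, beside 8.83% and 12.3% of all genes, and after adjustment the methods' t-test called 1 higher and 0 lower. On the 75th percentile scale 21 were lower and 6 higher with a median of -0.26, beside -0.02 over all genes, but with a normexp background 12 were lower and 15 higher with a median of 0.03, so the list had no direction that held under each scaling. The 4 left out, Scd4, Elovl4, Elovl7 and Acsl6, were not well above background on all arrays of either diet.

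Elongation takes an elongase and then 3 partners that reduce, dehydrate and reduce the chain again. Hsd17b12, the first reductase, differed by -0.21 (adjusted p = 0.395), without overlap. Hacd3, a dehydratase, read 7.38, 7.61 and 7.46 on normal chow and 6.93, 6.82 and 7.23 under the high-Chol diet, a difference of -0.49 (adjusted p = 0.179), also without overlap. Tecr, the last reductase, read 3.82, 3.80 and 4.13 and then 3.57, 3.06 and 3.04, a difference of -0.70 (SE 0.20, adjusted p = 0.133), again without overlap. In the whole list 8 genes were lower and 2 higher without overlap, where 14% and 11.9% of all genes with 6 values were. Lpcat1, which passed the filter only through the high-Chol group, was among the 2. Hacd1 and Hacd2 differed by -0.03 and -0.14. Hacd4, a further member of the dehydratase family, was the exception and rose from -1.62 ± 0.15 (SD, n = 3) to -0.52 ± 0.26 (SD, n = 3), by 1.11 (adjusted p = 0.0294 from limma), with 0.87 after median scaling (adjusted p = 0.0632) and 0.85 once slide was a block (adjusted p = 0.292). The cytochrome b5 genes Cyb5a and Cyb5b, which feed electrons to the desaturases, differed by -0.27 and -0.05, and Cyb5r3, their reductase, by -0.49.

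Once made, polyunsaturated chains are joined to coenzyme A and placed in phospholipids. Acsl4, which activates arachidonic acid, differed by -0.46 (adjusted p = 0.229, with 1 high-Chol array missing) and Acsl3 by 0.04. Lpcat3, the acyltransferase that puts arachidonic acid into liver phosphatidylcholine, differed by -0.26 (adjusted p = 0.527), Mboat7 by -0.29 and Agpat3 by -0.29. Lpcat1, best known for saturated phosphatidylcholine, rose from -3.54 ± 0.05 (SD, n = 3) to -2.40 ± 0.04 (SD, n = 3), by 1.14 (SE 0.13, adjusted p = 0.00985 from limma). This is a dim probe, well above background on 2 of 3 chow and 3 of 3 high-Chol arrays, so that it passed the filter only through the high-Chol group. Its difference was 1.11 with slide as a block but -0.16 with a normexp background. Its call was lost with the block (adjusted p = 0.105), with normexp and after median scaling (adjusted p = 0.0573). In the peroxisome, Acaa1a differed by -0.37, Scp2 by -0.18 and Hsd17b4 by 0.02, with adjusted p-values between 0.262 and 0.948.

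**Figure D5:**
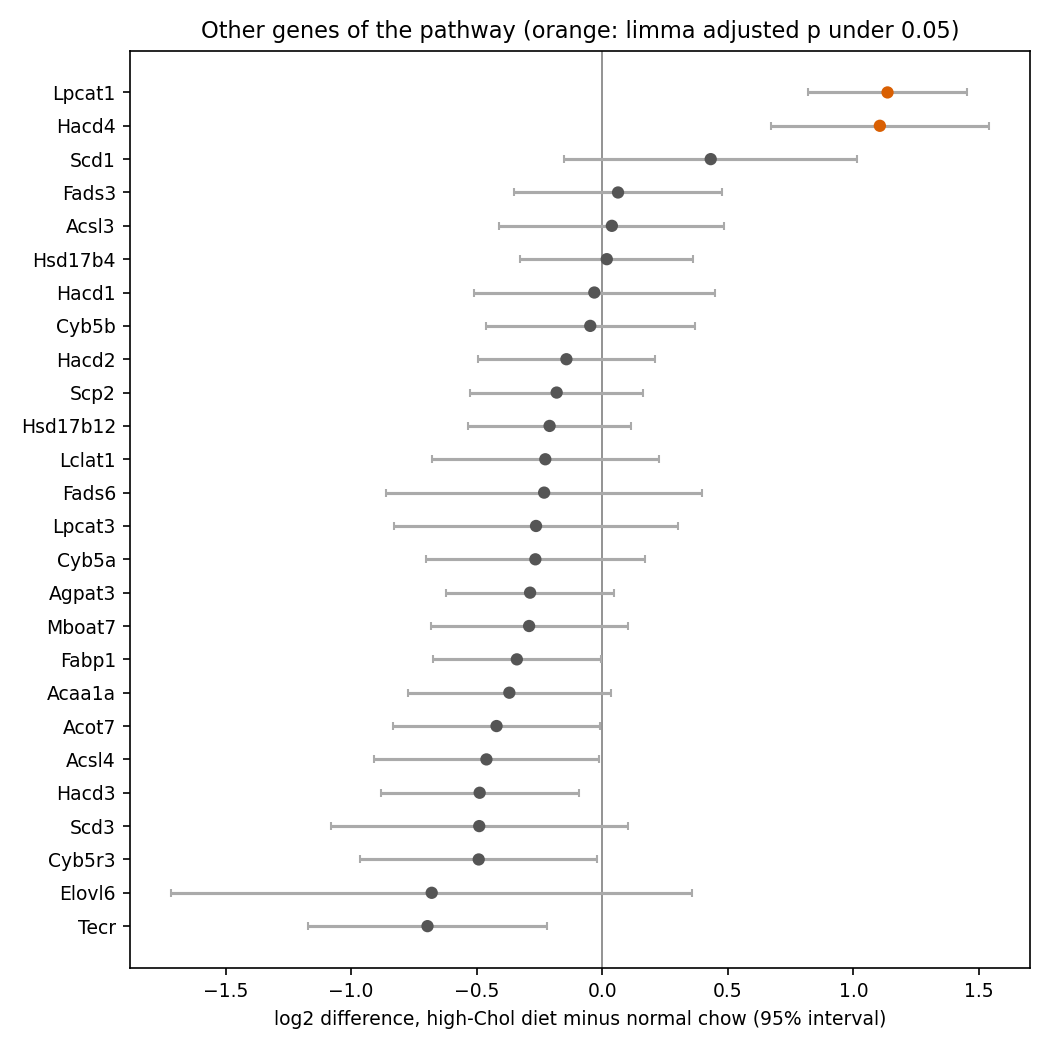
Difference between the diets (log2, high-Chol minus normal chow, horizontal axis) with its 95% interval for 26 of the 27 tested genes of the surrounding pathway, in order of size. Lpcat1 and Hacd4, in orange, are the 2 that passed limma's test, and 20 of the 26 drawn lie below 0 on the 75th percentile scale. Lpcat1 passed the filter on dim probes only through the high-Chol group.

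Regulators of these enzymes were read from a list of 13, all tested. Limma called 0, while 6 lower and 1 higher had an unadjusted p under 0.05, beside 8.83% and 12.3% of all genes. The methods' t-test gave 2 lower and 0 higher at that threshold, beside 8.3% and 8.38% of all genes, and called 0 after adjustment. Without the high-Chol array of slide 1, limma called 2 of them lower. Srebf1, which encodes SREBP-1, read 5.63, 5.89 and 6.35 on normal chow and 6.43, 5.40 and 6.69 under the high-Chol diet, a difference of 0.22 (adjusted p = 0.739). Nr1h3, which encodes LXR alpha, differed by 0.01 (95% interval -0.40 to 0.42). Ppara, the receptor for fatty acids that drives their oxidation, read 4.0, 4.65 and 4.54 and then 3.26, 3.23 and 3.89, without overlap and with a difference of -0.94 (adjusted p = 0.121), and its partner Rxra differed by -0.53 (adjusted p = 0.135). The median of the list was -0.34 on the 75th percentile scale and 0.08 with slide as a block, where 6 of the 13 were lower.

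Side by side, the genes of sterol synthesis, which SREBP-2 drives, had a median of -1.37 with 19 of 19 lower. Limma called 6 of them lower (17 without adjustment), beside 0.227% of all genes (8.83% without adjustment). The called number was 0 with slide as a block or a normexp background, 3 after quantile normalization, 8 after median scaling and 14 once the slide 1 high-Chol array was omitted. For genes of fatty acid synthesis the median was -0.66, with 7 of 9 lower and 0 called, with Fasn read on only 1 high-Chol array (1 lower at an unadjusted p under 0.05, and 0 with the methods' t-test after adjustment). Elovl6 and Scd1, which belong to the fatty acid synthesis list and also to the surrounding pathway, differed by -0.68 and 0.43. With slide as a block the median of the fatty acid synthesis genes was -0.16, with a normexp background it was -0.23, and after median scaling 1 of them was called lower. On the 75th percentile scale Fads1, Fads2 and Elovl2 had differences of -0.95, -0.77 and -0.67. These lay within the range of the sterol synthesis genes, -2.97 to -0.62. They also lay within that of the fatty acid synthesis genes, -1.89 to 0.43, but the lower end was Thrsp alone. The next lowest fatty acid synthesis gene was Acacb at -0.69. Fads1 and Fads2 thus lay below every fatty acid synthesis gene except Thrsp, while Elovl2 did not.

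Likeness between profiles was measured as the root mean square difference, over the 6 arrays, between levels centred on each gene's own mean, among the 14043 other genes with all values and well above background throughout. Fads2 was nearest to Ttc23 (0.04), Npc1 (0.08) and Txndc11 (0.09), and Elovl2 to Rmnd5a (0.02), Serpina3m (0.04) and Rab3ip (0.05). Fads1 was nearest to 4930463O16Rik (0.09), 0610039H22Rik (0.10) and Scara3 (0.10). Scd2 was nearest to Fgl2 (0.10), Ms4a6d (0.14) and Evi2a (0.15). Elovl1 was nearest to Zfp93 (0.02), Rarb (0.06) and the unnamed transcript TC1462044 (0.07), while Elovl3 had no gene closer than Xlr4b (0.35), followed by Gngt1 (0.44) and Ddef2 (0.47). Between members, Fads2 and Elovl2 differed by 0.18 and Fads2 and Fads1 by 0.22. Among the 14043 genes, Elovl2 ranked 110 in nearness to Fads2, and Fads2 ranked 95 in nearness to Fads1, so many genes outside the members lay closer. All these genes share the same 6 arrays, so their likeness includes whatever the slides and arrays have in common.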

How the data were processed

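Liver RNA was measured on 6 one-colour Agilent arrays, 3 per diet. The authors deposited scanner files with background-subtracted spot intensity values, read with Agilent Feature Extraction (9.1 per the submitters' notes, 9.5 in the headers of slide 1), and a matrix of 1 log2 value per probe and diet, combined over 3 arrays by the authors. Its differences correlated with those used here at r = 1.00 over 15688 genes, with an offset of -0.24, and its scaling is not given in the sources used here.

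Control spots and spots marked as outliers were left out. The log2 processed signal minus each array's 75th percentile was compared with limma 3.58.1 in R 4.3.3, with Benjamini-Hochberg adjustment over all 16730 genes and a threshold of 0.05. Probes had to be well above background on every array of 1 diet or both, and a gene was read from its brightest probe. The alternatives were a normexp background (offset 50), median and quantile scaling, other filters, the average over probes of a gene, a slide block, omission of each array, a trended and robust prior, array weights, the methods' t-test and the authors' values. Slide 1 alone was added after the data were seen. With the slide block the diets are compared on slide 1 only, since slide 2 holds no chow array. Sequences are those of the array files and of RefSeq. The fit was tested on simulated data. Named genes are the members, genes of the lists, the 3 nearest profiles per member and the Fads neighbours. Values are given for only some genes of the lists, while the counts cover all that were tested. Members and lists were chosen with earlier results of these data known. Precision is limited by the number of arrays, and p-values measure the spread between these arrays. Python 3.11.15, pandas 2.3.3, numpy 2.4.6, matplotlib 3.10.9 and the R package data.table (version 1.17.8) were used.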

Additional observations from a re-analysis of the deposited data

How the results depend on the processing

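Fads1, Fads2 and Elovl2 were lower and Elovl3 and Scd2 higher under every alternative run for them. Scd2 differed by 1.41 with a normexp background, by 1.72 without the filter on dim probes or with the methods' t-test, by 1.21 with slide as a block or on slide 1 alone, and by 1.51 to 1.97 with single arrays left out, and lost its call in each but 1 of these fits, the one without the high-Chol array of slide 1. Enzymes called higher were then 0, and between 0 and 1 in the leave-one-out fits. Fads1, Fads2 and Elovl2 were called with array weights (-1.21, -0.93 and -0.76) and with that array left out, which made 3 called lower, and Elovl2 also with a trended and robust prior (-0.67), where 1 was called lower. With single arrays left out they ranged from -1.26 to -0.78, from -0.92 to -0.59 and from -0.75 to -0.61, with 0 to 3 called lower. The authors' values gave -0.91 for Elovl2. Of the enzymes more than 1.5-fold lower, 1 remained with normexp, and 0 with slide as a block or on slide 1 alone. Elovl1 turned to -0.12 with median scaling and with the authors' values, and ranged from -0.031 to 0.25 with single arrays left out. Elovl5 turned to 0.50 with normexp, 0.088 after quantile normalization, 0.20 with slide as a block or on slide 1 alone and 0.23 on its second probe, and ranged from -0.38 to 0.20 with single arrays left out. The cause was not tested. Of the surrounding pathway, 0 to 3 genes were called across these settings.

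Genes called higher and lower, 450 and 38 as reported, numbered 0 and 0 with normexp, 329 and 73 with median scaling, 26 and 0 without the filter, 11 and 0 with slide as a block, 3 and 1 on slide 1 alone, 450 and 89 with the robust prior, 2202 and 995 with array weights and 4 and 1 with the t-test. Leaving out single arrays gave 42 to 2316 and 0 to 761. No paired analysis was possible because the arrays carry no replicate numbers shared between the diets.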
